A study of Mus musculus with 5 samples.

Results

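The Siglec receptors described here are 8 genes, Siglec1, Cd33, Siglece, Siglecf, Siglecg, Siglech, Cd22 and Mag, taken by symbol from the 19505 genes named on the array, each with 1 probe set. They were measured in whole subcutaneous tumours of wild-type C57BL/6 mice aged 10 weeks, which grew from the murine melanoma line B16.F10 with luciferase and GFP reporters (luc+GFP+). Each of the 5 mice received anti-PD-1, an antibody against an inhibitory receptor of T cells, by the intraperitoneal route on days 1, 4 and 8, so no tumour shows the genes without checkpoint blockade. In 2 mice the oral treatment was vehicle (corn oil with 5% DMSO), and in 3 mice it was RG7112, a small molecule that keeps MDM2 from binding p53, dosed every 2 days over 6 days. Oral dosing started 2 days after injection, and tumours were excised on day 13. The RNA came from a mixture of cells of this 1 transplanted line and infiltrating immune cells. In such bulk RNA, fewer cells of a type and less RNA per cell cannot be told apart.

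Siglecs are cell surface lectins of the immunoglobulin superfamily that bind sialic acids, the sugars that cap many glycoproteins and glycolipids. Most members of the CD33-related branch carry tyrosine motifs in their tails that recruit the phosphatases SHP-1 and SHP-2 and so dampen activating signals in leukocytes, while others pair with the adaptor DAP12, encoded by Tyrobp. Tumour cells are often rich in sialic acids, and their binding to Siglecs of myeloid cells has been studied as a checkpoint beside PD-1. Each family member is best known from particular cells, among them macrophages for Siglec1, neutrophils and monocytes for Siglece, eosinophils for Siglecf, plasmacytoid dendritic cells for Siglech and B cells for Cd22.

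The arrays had medians of 5.76 to 5.81 on the log2 scale and Pearson correlations of 0.983 to 0.992 across probes, which are not independent replicates. All 8 melanocyte markers measured were bright, with a mean level of 11.92 to 12.04 per tumour and 0 called in limma (0 at an unadjusted p under 0.05). The deposited values hold no detection calls, so the 1091 probes for olfactory receptors, genes of the nose, were used as a rough guide to the dim end of the scale. The 95th percentile of these probes lay between 4.55 and 4.75 on the 5 arrays. Probes differ in how strongly they bind, so this is a guide to dimness and no measure of whether a gene was expressed.

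RG7112 tumours had more Siglece RNA than vehicle tumours, and none of the other 7 Siglec genes passed the test. Siglece was higher by 0.96 ± 0.20 (SE) on the log2 scale, or 1.94-fold. This call was close to the threshold (limma adjusted p = 0.0431) and was lost when some single tumours were left out, as given below. Both vehicle values of Siglece were below the 95th percentile of the olfactory receptor probes. Siglec1, the macrophage sialoadhesin, and Cd33 were at nearly the same mean in both groups, although markers of macrophages and monocytes were 1.42 higher on average. At adjusted p under 0.05 in limma, 1 of 8 Siglec genes was higher and 0 were lower, against 1.42% of all 22203 probes higher and 0.0315% lower. At an unadjusted p under 0.05 the count was also 1 of 8, against 8.89% of all probes, so it is near the background share. The median difference of the 8 genes was -0.03, as it was over all probes. The differences ran from -0.23 for Siglecf to 0.96 for Siglece, and 4 of them were positive and 4 negative.

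**Figure D1:**
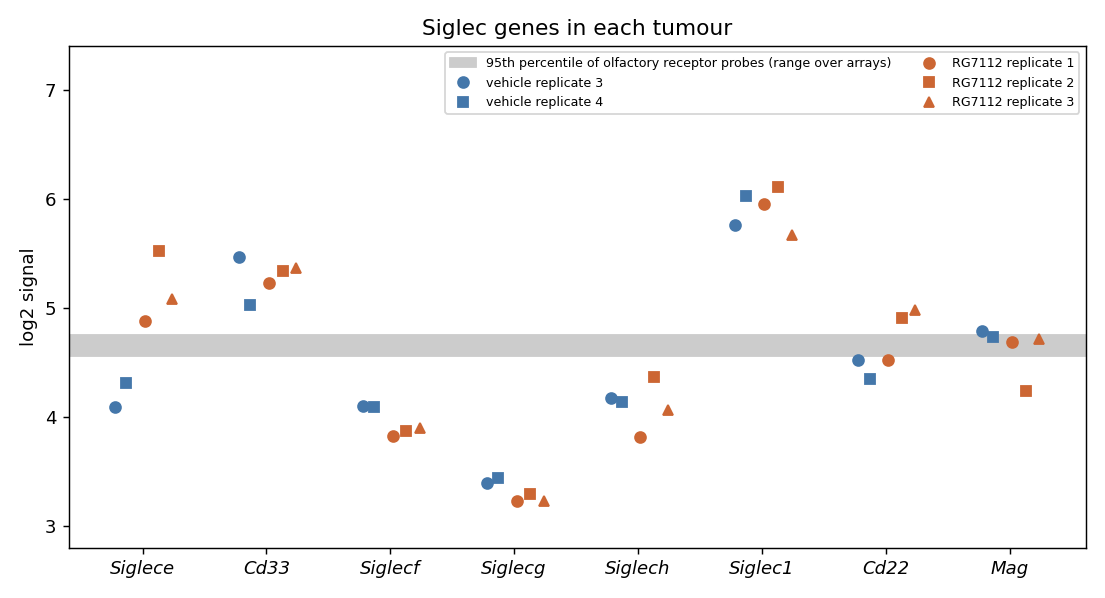
Log2 signal (vertical axis) of the 8 Siglec genes in each of the 5 tumours, with vehicle tumours in blue, RG7112 tumours in orange and 1 symbol per array; the grey band spans the 95th percentile of olfactory receptor probes on the arrays, from 4.55 to 4.75. The 3 RG7112 values of Siglece, from 4.88 to 5.52, lie above the band and both vehicle values, 4.09 and 4.31, lie below it, while the values of Siglec1 and Cd33 are mixed between the groups.

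Siglece (probe TC0700002951.mm.2) encodes Siglec-E, an inhibitory receptor of mouse neutrophils, monocytes and macrophages. Its log2 signal was 4.09 and 4.31 in vehicle replicates 3 and 4. In RG7112 replicates 1, 2 and 3 it was 4.88, 5.52 and 5.08. Every RG7112 tumour was thus above both vehicle tumours, with a gap of 0.57 between the nearest values, and RG7112 replicate 2 was the highest. The group means were 4.20 ± 0.15 (SD, n = 2) and 5.16 ± 0.33 (SD, n = 3). The difference of 0.96 had a 95% interval of 0.52 to 1.40, which is a 1.43-fold to 2.64-fold range (limma adjusted p = 0.0431 over all probes). The call was close to the threshold and was lost without vehicle replicate 3 (adjusted p = 0.515), vehicle replicate 4 (0.259), RG7112 replicate 2 (0.107) or RG7112 replicate 3 (0.113), although the difference stayed between 0.78 and 1.10. The vehicle values lay below the 95th percentile of the olfactory receptor probes of their arrays and the RG7112 values above it, so the fold rests on a dim starting level.

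Cd33 (probe TC0700002950.mm.2), a myeloid Siglec that gave the CD33-related branch its name, was at 5.46 and 5.03 with vehicle. With RG7112 it was at 5.23, 5.34 and 5.36, inside the range set by the vehicle tumours. The means were 5.25 ± 0.31 (SD, n = 2) and 5.31 ± 0.07 (SD, n = 3), and the difference of 0.07 ± 0.17 (SE) had an interval of -0.32 to 0.45 (adjusted p = 0.961). This interval lies below that of Siglece, though the difference between the changes of these 2 genes was not tested.

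Siglecf, best known from eosinophils and alveolar macrophages, and Siglecg, an inhibitory receptor of B-1 cells and dendritic cells, were both dim and slightly lower with RG7112. Siglecf (probe TC0700000756.mm.2) was at 4.10 and 4.09 with vehicle and at 3.82, 3.87 and 3.90 with RG7112. Siglecg (probe TC0700000757.mm.2) was at 3.39 and 3.44 with vehicle and at 3.23, 3.29 and 3.23 with RG7112. In both genes the groups did not overlap, and the replicates lay close together. Neither passed the test, with differences of -0.23 ± 0.15 (SE, interval -0.56 to 0.10, adjusted p = 0.749) and -0.17 ± 0.15 (SE, interval -0.50 to 0.17, adjusted p = 0.847). All 10 of these values were below the 95th percentile of the olfactory receptor probes. Of the 1091 olfactory receptor probes themselves, 184 were lower in every RG7112 tumour and 55 higher, with a median difference of -0.06, and 0 were called in limma (49 had an unadjusted p under 0.05).

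Counted over the family, the groups did not overlap in 5 genes. RG7112 tumours were all higher for Siglece and Cd22 and all lower for Siglecf, Siglecg and Mag, which is 2 of 8 and 3 of 8. Over all probes the shares were 10.8% higher and 14.0% lower. For Cd22 and Mag the gap between the groups was under the spread within a group.

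**Figure D2:**
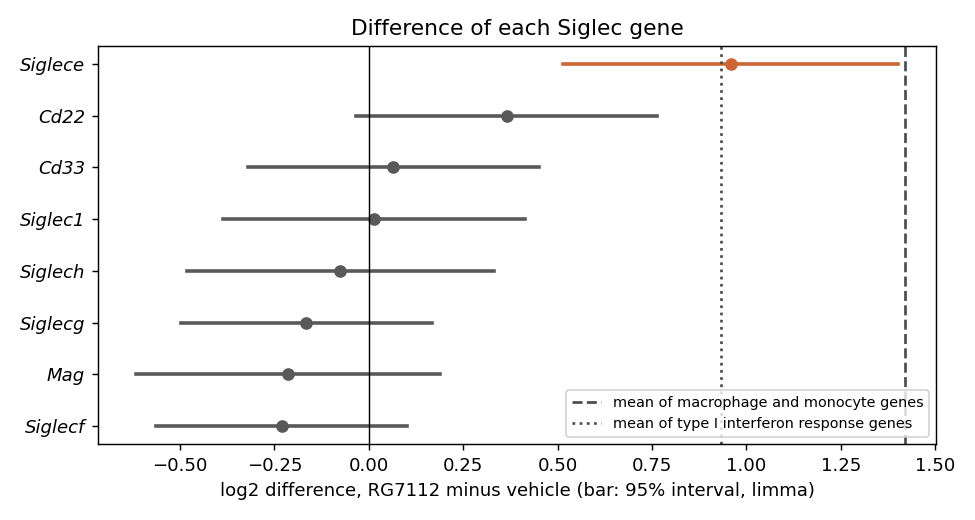
Log2 difference, RG7112 minus vehicle (horizontal axis), of each Siglec gene with its 95% interval from limma; the dashed line marks the mean difference of the macrophage and monocyte markers, 1.42, and the dotted line that of the type I interferon response genes, 0.93. The interval of Siglece (orange) runs from 0.52 to 1.40, and those of the other 7 genes include 0.

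Of the 8 genes, 7 lie on chromosome 7 in the RefSeq assembly GRCm38.p6, and Siglec1 lies on chromosome 2. Cd22 and Mag are direct neighbours, as are Siglecf and Siglecg, and 4 protein-coding genes separate Cd33 from Siglece. None of the genes measured beside Siglece passed. Ceacam18, its neighbour on one side, differed by -0.51 ± 0.17 (SE, adjusted p = 0.329) and Ctu1, on the other, by -0.05 ± 0.17 (adjusted p = 0.976). Over the 3 nearest genes on each side, from Zfp719 to Klk13, the differences ran from -0.51 to 0.12. The neighbours Cd22 and Mag went apart, with differences of 0.37 and -0.21 that did not pass.

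Upstream sequence was at hand for 7 of the 8 genes in the RefSeq promoter table (GRCm38.p6). The 250 bases before the annotated transcript start are shown for Siglece, the gene that passed, and for Cd33 and Siglecf, which did not pass and hold the longest run of bases shared between any 2 of these genes. In Siglece, at chr7:43660162-43660411 on the minus strand, capitals mark the core of the motif of PU.1, a transcription factor of myeloid cells (GAGGAA, or its reverse complement TTCCTC). In Cd33, at chr7:43533172-43533421 on the minus strand, and Siglecf, at chr7:43351091-43351340 on the plus strand, capitals mark the shared run of 16 bases.
Siglece: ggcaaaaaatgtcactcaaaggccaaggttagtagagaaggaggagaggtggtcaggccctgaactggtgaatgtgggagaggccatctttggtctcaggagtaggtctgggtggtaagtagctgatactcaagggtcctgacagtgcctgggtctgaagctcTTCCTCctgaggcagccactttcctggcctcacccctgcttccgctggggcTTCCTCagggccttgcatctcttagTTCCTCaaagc
Cd33: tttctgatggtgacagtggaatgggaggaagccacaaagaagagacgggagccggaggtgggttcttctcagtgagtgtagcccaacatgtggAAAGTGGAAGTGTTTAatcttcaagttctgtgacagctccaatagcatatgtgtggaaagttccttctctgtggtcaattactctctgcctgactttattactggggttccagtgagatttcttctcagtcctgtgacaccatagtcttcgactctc
Siglecf: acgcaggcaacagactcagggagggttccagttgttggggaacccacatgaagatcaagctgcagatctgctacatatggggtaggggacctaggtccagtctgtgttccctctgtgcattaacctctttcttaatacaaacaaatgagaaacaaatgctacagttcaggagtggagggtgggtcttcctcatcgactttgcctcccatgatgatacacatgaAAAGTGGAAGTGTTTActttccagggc

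The Siglece window held 3 copies of the PU.1 core, all as TTCCTC on the printed strand, starting 87, 36 and 11 bases before the transcript start. At least 1 copy was present in 23.3% of all 32851 windows of this length, and 3 or more in 0.429%. In 4 other Siglec genes (Cd33, Mag, Siglecf and Siglecg) at least 1 window held a copy. Mag and Siglecg have more than 1 window, so the 7 genes have 10. A gene was counted if any of its windows matched, whereas the shares are per window. The run shared by Cd33 and Siglecf includes the ETS family core GGAAGT and begins 157 and 27 bases before the start, and it was found in the windows of no other gene. The longest run shared by any other pair of Siglec genes was 10 bases. Each motif was searched on both strands, and these were chosen after the windows had been looked at. The core of the interferon-stimulated response element, GAAANNGAA, was in none of the 7 genes' windows and in 7.13% of all windows. The gamma-activated site, TTCNNNGAA, was in at least 1 window of Mag and of Siglech and in 7.02% of all windows. GGGNNTTCC, which NF-kB sites can hold, was in the windows of Siglece and Siglecf and in 4.98% of all. GGAAGT was in those of Cd33, Siglecf and Siglech and in 19.7% of all. A match is a string of letters in a window, and binding was not measured.

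Siglech (probe TC0700000931.mm.2), a receptor of plasmacytoid dendritic cells and microglia that signals through DAP12, was at 4.18 and 4.14 with vehicle and at 3.81, 4.36 and 4.06 with RG7112. The groups overlapped, all 5 values were under the olfactory receptor percentile, and the difference was -0.08 ± 0.18 (SE, interval -0.48 to 0.33, adjusted p = 0.957). Of 13 measured markers of plasmacytoid dendritic cells 2 rose, Tlr7 (1.84 ± 0.33), an RNA sensor, and Lair1 (1.42 ± 0.29), a collagen receptor, both of which macrophages also express. Both calls were lost without vehicle replicate 3 or 4, that of Tlr7 also without RG7112 replicate 2 and that of Lair1 also without RG7112 replicate 3. In limma 5 of the 13 had an unadjusted p under 0.05, against 8.89% of all probes. In 7 every RG7112 tumour was above both vehicle tumours, against 10.8% of all probes, and 1.42% of all probes were called higher. Of those that did not pass, the interferon-inducible surface protein Bst2 differed by 0.95 ± 0.21 (adjusted p = 0.0522), the DNA sensor Tlr9 by 0.87 ± 0.24 (adjusted p = 0.160) and Klk1, a kallikrein protease, by 0.41 ± 0.16 (adjusted p = 0.440). The transcription factor Spib differed by -0.29 ± 0.15, and it and the chemokine receptor Ccr9 (0.11 ± 0.16) were the 2 markers under the olfactory receptor percentile on all arrays. The mean of the 13 markers was 5.95 to 6.00 with vehicle and 6.34 to 6.51 with RG7112.

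Siglec1 (probe TC0200004647.mm.2) encodes sialoadhesin, or CD169, a long adhesion receptor of tissue macrophages and an interferon-inducible gene of monocytes, which lacks inhibitory tail motifs. It was at 5.76 and 6.03 with vehicle and at 5.95, 6.11 and 5.66 with RG7112. The highest and the lowest value were both from RG7112 tumours, and the means were 5.89 ± 0.19 (SD, n = 2) and 5.91 ± 0.23 (SD, n = 3). The difference was 0.01 ± 0.18 (SE), with an interval of -0.39 to 0.41 (adjusted p = 0.993). All 5 values were above the olfactory receptor percentile.

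Markers of macrophages and monocytes and genes of the interferon response were higher in the same RG7112 tumours. Of 14 measured macrophage and monocyte markers 10 rose, 0 fell and 4 did not pass, and their median difference was 1.40. Over all probes 1.42% were called higher and 0.0315% lower. The mean level of these markers was 6.12 to 6.40 with vehicle and 7.53 to 7.85 with RG7112. Adgre1, an adhesion receptor that marks mouse macrophages, rose by 1.58 ± 0.18, Csf1r, the receptor of the macrophage growth factor CSF1, by 1.08 ± 0.17, and Mpeg1, a pore-forming protein of macrophages, by 1.90 ± 0.16. Without vehicle replicate 4, 2 of the 14 were called (Aif1 and Mpeg1). Of 13 genes of the type I interferon response 7 rose, 0 fell and 6 did not pass, with a median of 0.94 and mean levels of 6.40 to 6.41 against 7.12 to 7.55. Rsad2 rose by 1.10 ± 0.16 and Ifit3 by 1.02 ± 0.17, both antiviral effectors. This list held 1 call without vehicle replicate 3 and 0 without vehicle replicate 4, while all 13 genes had an unadjusted p under 0.05 on the 5 arrays.

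Relative to the mean of the macrophage and monocyte markers of the same tumour, Siglec1 was at -0.64 and -0.09 with vehicle and at -1.90, -1.42 and -2.00 with RG7112 on the log2 scale. The difference between the groups was -1.41. Cd33 was at -0.94 and -1.09 against -2.61, -2.19 and -2.30, again with no overlap. Siglece was at -2.31 and -1.81 with vehicle and at -2.97, -2.01 and -2.59 with RG7112. Its groups overlapped on this scale, with a difference of -0.46. These differences are a description: the marker mean itself separates the groups, so a probe at a like level in all tumours gives the smallest exact permutation p the 10 splits allow, 0.1, whatever it measures. The comparison also sets the Siglece probe, under the olfactory receptor percentile in both vehicle tumours, against a marker mean that lies above it. Without the interferon-inducible markers Fcgr1 and Ly6c2 the differences were -1.36 for Siglec1 and -0.42 for Siglece.

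**Figure D3:**
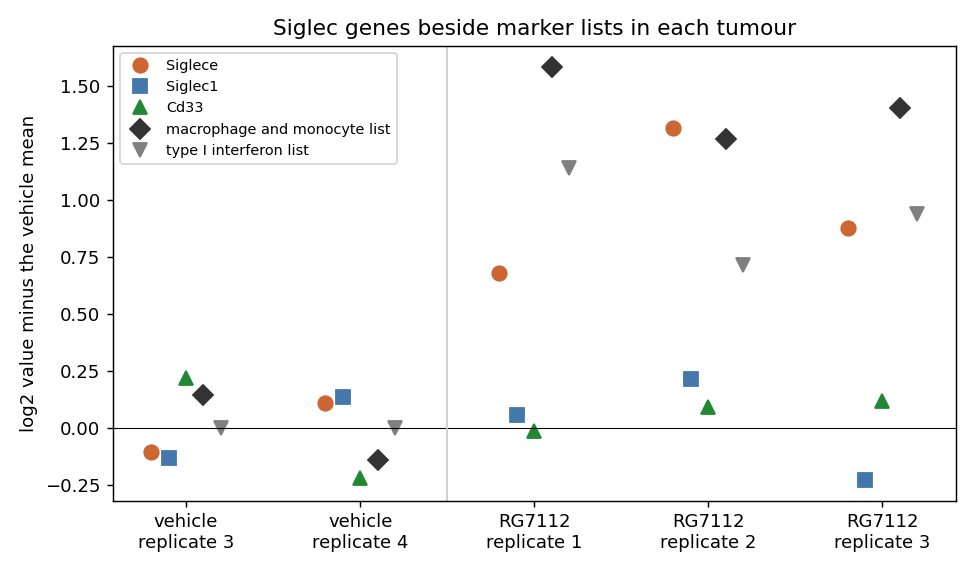
Siglece, Siglec1 and Cd33 beside the mean of 14 macrophage and monocyte markers and of 13 type I interferon response genes in each tumour, as log2 value minus the vehicle mean (vertical axis); each symbol is 1 array, with the 2 vehicle arrays left of the line. Siglece and both lists lie above their vehicle values in every RG7112 tumour, and the Siglec1 and Cd33 values of the groups are mixed around 0.

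Of 8 measured genes of resident macrophages of the CD169 type, 0 passed in limma. At an unadjusted p under 0.05 there were 2, Cd163 and Spic, against 8.89% of all probes. The scavenger receptor Cd163 differed by -0.56 ± 0.17 (adjusted p = 0.240) and was lower in every RG7112 tumour than in both vehicle tumours. Spic, a transcription factor of red pulp macrophages, differed by 0.78 ± 0.22 and was higher in every RG7112 tumour. Over all probes 10.8% were higher in this way and 14.0% lower. Lyve1, a hyaluronan receptor, differed by -0.45 ± 0.23. The list median was 0.27, and its mean level was 4.87 to 5.06 with vehicle and 4.95 to 5.35 with RG7112. Timd4, a receptor for dying cells on resident macrophages, was under the olfactory receptor percentile on all arrays.

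Neutrophils and eosinophils are the other cells from which Siglece and Siglecf are known. Of 9 measured neutrophil markers 0 passed in limma, 1 had an unadjusted p under 0.05, and the median difference was -0.04. The mean level was 4.21 to 4.29 with vehicle and 4.19 to 4.29 with RG7112. The calprotectin gene S100a8 was at 3.57 and 3.41 with vehicle and at 3.39, 3.39 and 3.28 with RG7112. It was among 6 of the 9 markers that stayed under the olfactory receptor percentile on all arrays, whereas the growth factor receptor Csf3r, which monocytes also express, differed by 0.62 ± 0.17 (adjusted p = 0.163). Of 7 eosinophil markers 0 passed and 0 had an unadjusted p under 0.05. All but the granule protein gene Prg3 were under the percentile on all arrays, and the mean level was 3.98 to 4.02 with vehicle and 3.83 to 3.93 with RG7112. Of 5 T cell markers 0 passed in limma and 3 had an unadjusted p under 0.05, against 8.89% of all probes (median difference 0.52). In 4 of the 5 every RG7112 tumour was above both vehicle tumours, against 10.8% of all probes. Of 5 microglia markers 0 passed and 0 had an unadjusted p under 0.05 (median -0.03). The part of each cell type in the Siglec values was not tested.

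Cd22 (probe TC0700002779.mm.2), an inhibitory coreceptor of the B cell antigen receptor, was at 4.52 and 4.35 with vehicle and at 4.52, 4.90 and 4.98 with RG7112. The lowest RG7112 value and the higher vehicle value were almost equal, and RG7112 replicates 2 and 3 lay above. Both vehicle values and that of RG7112 replicate 1 were under the olfactory receptor percentile of their arrays. The means were 4.43 ± 0.12 (SD, n = 2) and 4.80 ± 0.25 (SD, n = 3), and the difference of 0.37 ± 0.18 (SE, interval -0.03 to 0.76) did not pass (adjusted p = 0.621). Of 11 measured B cell markers 0 passed in limma and 0 had an unadjusted p under 0.05, with a median of -0.14 and 10 negative differences. Their mean level was 4.68 to 4.76 with vehicle and 4.35 to 4.80 with RG7112. Ebf1, an early B cell transcription factor that other cells also express, was the 1 positive, at 0.39 ± 0.18 (adjusted p = 0.569), with every RG7112 tumour above both vehicle tumours. The kinase Blk differed by -0.40 ± 0.22 (adjusted p = 0.674). Blk and Cr2, another marker on the list, were lower in every RG7112 tumour than in both vehicle tumours. Without overlap, 1 of the 11 was thus higher and 2 were lower, against 10.8% and 14.0% of all probes. Ms4a1, which encodes CD20, and Pax5, the B cell transcription factor, were among 6 under the olfactory receptor percentile on all arrays, and Cd79a, a chain of the antigen receptor, differed by -0.14 ± 0.22.

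Mag (probe TC0700002780.mm.2) encodes myelin-associated glycoprotein, the Siglec of myelinating glia. It was at 4.79 and 4.73 with vehicle and at 4.69, 4.24 and 4.71 with RG7112, so that RG7112 replicate 2 alone was well below the rest. That value was under the olfactory receptor percentile of its array, and the others lay above but near it. The difference was -0.21 ± 0.18 (SE, interval -0.62 to 0.19, adjusted p = 0.828), and -0.06 without RG7112 replicate 2. Of 7 myelin genes 0 passed in limma and 1 had an unadjusted p under 0.05, the connexin Gjc3 (-0.63 ± 0.25). The myelin protein gene Mog was under the olfactory receptor percentile on all arrays, and Mbp was at 7.57 and 7.84 with vehicle and at 8.06, 7.60 and 7.67 with RG7112. Siglec15, a Siglec of osteoclasts and some macrophages outside the 8 genes, was at 6.38 and 6.41 with vehicle and at 5.93, 6.11 and 6.41 with RG7112, a difference of -0.25 ± 0.18 (adjusted p = 0.778).

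Partners that carry Siglec signals moved in part. Of 12 measured genes 3 rose, 0 fell and 9 did not pass, with a median of 0.46. Over all probes 1.42% were called higher. Tyrobp, the DAP12 adaptor that activating Siglecs and Siglech use, was at 5.97 and 5.74 with vehicle and at 7.33, 7.29 and 6.82 with RG7112, a rise of 1.30 ± 0.19 (adjusted p = 0.00547). Inpp5d, which encodes the inhibitory lipid phosphatase SHIP1, was at 6.50 and 6.46 against 7.60, 7.47 and 7.29 and rose by 0.98 ± 0.16 (adjusted p = 0.0111). Vav1, an exchange factor downstream of leukocyte receptors, rose by 1.28 ± 0.22 (adjusted p = 0.0119). In all 3 genes every RG7112 tumour was above both vehicle tumours. The 3 calls were lost when vehicle replicate 3 was left out (adjusted p = 0.140 for Inpp5d, 0.0544 for Tyrobp and 0.202 for Vav1) or without vehicle replicate 4 (0.186, 0.152 and 0.175), and that of Vav1 also without RG7112 replicate 3 (0.0629).

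The phosphatases that bind inhibitory Siglec tails did not pass. Ptpn6, which encodes SHP-1, was at 7.51 and 7.67 with vehicle and at 7.95, 8.09 and 8.68 with RG7112, a difference of 0.65 ± 0.22 (adjusted p = 0.302). Ptpn11, which encodes the more widely expressed SHP-2, differed by -0.09 ± 0.16. The kinase Syk, which DAP12 recruits, differed by 0.55 ± 0.17 (adjusted p = 0.240) and Blnk, an adaptor of the B cell receptor pathway, by 0.55 ± 0.16 (adjusted p = 0.182). Hcst, the DAP10 adaptor, was at 3.71 to 4.13 in all tumours, under the olfactory receptor percentile. The macrophage and monocyte mean, 1.42 higher, stood beside these genes, most of which leukocytes share. The cells that gave the RNA of these partner genes were not tested.

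On the ligand side, the genes that make, attach and remove sialic acids were in 3 lists, and none of their genes passed in limma. Of 8 genes for the supply of activated sialic acid, 0 had an unadjusted p under 0.05 and the median was -0.02. Gne, which starts sialic acid synthesis, differed by 0.13 ± 0.19, Cmas, which activates the sugar, by -0.20 ± 0.18, and Slc35a1, which carries it into the Golgi, by -0.38 ± 0.19. Of 17 sialyltransferases 1 had an unadjusted p under 0.05, and the median was -0.07. This was St6galnac1, which caps O-linked sugars, at 5.73 and 5.74 with vehicle and at 5.22, 5.31 and 5.22 with RG7112 (-0.48 ± 0.15, adjusted p = 0.252). St6gal1, which makes the sialic acid linkage that CD22 prefers, differed by 0.25 ± 0.16, and St3gal6 by -0.07 ± 0.18. Of 6 sialidase and esterase genes 1 had an unadjusted p under 0.05, the sialidase Neu4 (-0.53 ± 0.23, adjusted p = 0.521). Neu1, the lysosomal sialidase, differed by -0.21 ± 0.16. The melanocyte marker mean, 0.06 higher over its 8 genes, stood beside these genes, many of which tumour cells also express. The cells that gave the RNA of these 3 lists were not tested.

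Of 10 glycoproteins that can carry Siglec ligands 3 rose, 0 fell and 7 did not pass, with a median of 0.30. Over all probes 1.42% were called higher. Ptprc, which encodes the leukocyte antigen CD45, a partner of CD22, was at 6.62 and 6.59 with vehicle and at 8.75, 8.75 and 8.12 with RG7112, a rise of 1.93 ± 0.21 (adjusted p = 0.000776). Selplg, which encodes the selectin ligand PSGL-1, rose by 1.41 ± 0.16 (adjusted p = 0.000981), and Cd52, a small sialylated leukocyte protein, by 2.16 ± 0.34 (adjusted p = 0.00849; 0.166 without vehicle replicate 4). Spn, which encodes the sialoadhesin ligand CD43, was at 4.01 and 4.28 with vehicle and at 4.75, 4.79 and 4.96 with RG7112 (0.69 ± 0.16, adjusted p = 0.0836). Cd24a, a ligand of Siglec-G, was at 3.51 to 3.87 in all tumours, under the olfactory receptor percentile, and differed by 0.05 ± 0.17. The genes of this list that rose are leukocyte genes, as is Spn, which did not pass. Among genes that tumour and other cells also make, Cd44 (0.17 ± 0.16) and Lgals3bp (0.44 ± 0.17, limma adjusted p = 0.456) did not pass. Both were higher in every RG7112 tumour than in both vehicle tumours. Podxl (0.07 ± 0.16) did not pass, and its groups overlapped. Which cells the RNA of this list came from was not tested.

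**Figure D4:**
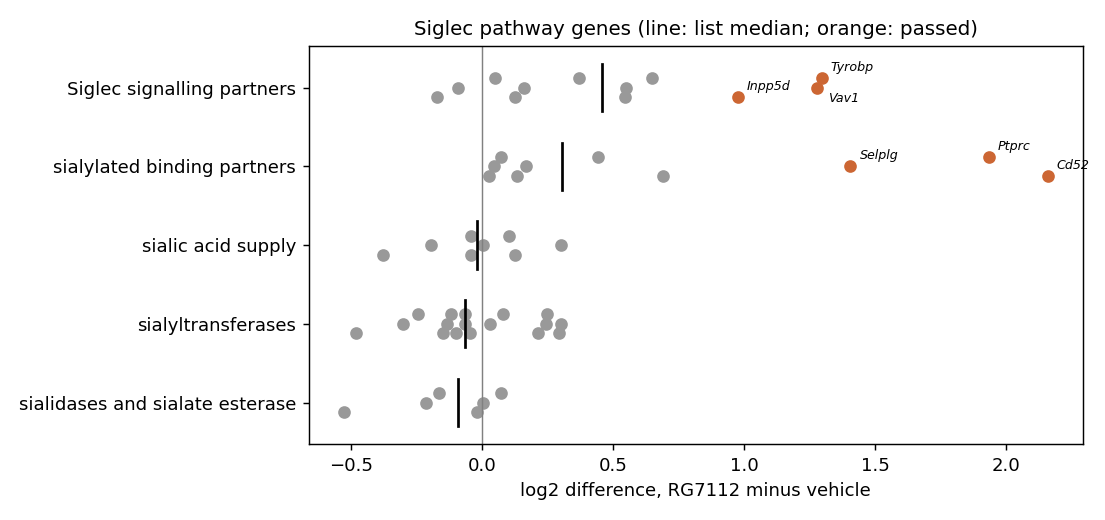
Log2 difference, RG7112 minus vehicle (horizontal axis), of every measured gene in 5 lists around the Siglecs; each point is a gene, orange where it passed limma at adjusted p under 0.05 and grey where it did not, and the black line is the list median. Called genes appear in 2 lists, signalling partners and sialylated binding partners, and the lists of sialic acid supply, sialyltransferases and sialidases centre near 0.

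The genes whose values over the 5 tumours were most like those of Siglece, by the root mean square difference of values centred on each gene's mean, were Kdr (0.113), a VEGF receptor of endothelium, Prkch (0.134), a protein kinase C, Atp6v0d2 (0.153), a subunit of the vacuolar proton pump, Rnf19b (0.158) and Tapbpl (0.171), which edits class I peptides. All 5 were called higher, by 0.86 to 1.01, and all 5 calls were lost without vehicle replicate 3 or 4 or RG7112 replicate 2. For Siglec1 the closest were Apbb2 (0.0257), Gsx2 (0.0350), Map2 (0.0385), Gxylt1 (0.0394) and Olfr1389 (0.0413), none of which passed. These genes were picked for values close to Siglece or Siglec1 in the same tumours, so similar differences and calls follow from the pick. Probes without a single gene symbol and genes with Gm or Rik names were left out of the ranking. With 5 tumours such likeness is a description.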

How the data were processed

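Gene expression was measured with 1 Affymetrix Clariom S mouse array per tumour. The values are log2 signals per probe set, as the authors deposited them, and the submitters' processing notes name oligo and RMA (no version or option is given in the sources used here). The platform annotation named 19572 of 22203 probes. The difference RG7112 minus vehicle came from limma 3.58.1 (lmFit and eBayes, under R 4.3.3) over all probes with Benjamini-Hochberg adjustment, and a gene was called at adjusted p under 0.05. Intervals are 95% from the moderated fit. Each tumour came from its own mouse, and 2 against 3 arrays limit the precision. An exact permutation test cannot give a p below 0.1.

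The Siglec genes, the 17 gene lists and the rules were chosen with earlier results of these data known. The rule for naming put list members that passed first, then up to 4 with the smallest p, and the 5 genes most like Siglece and Siglec1. The likeness ranking left out probes without a single gene symbol and genes with Gm or Rik names. Other list members were named for their role, with their values known. Alternatives were normalization, weights, eBayes options, filters on dim probes, the threshold and leaving out each tumour. Motifs were searched in the 250 bases upstream of RefSeq starts. No scan dates were used here, so array batches were not examined.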

Additional observations from a re-analysis of the deposited data

How the results depend on the processing

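Siglece was higher in all 12 alternatives that kept its probe, by 0.78 to 1.10, and was called in 8 of them. The lowest limma adjusted p was 0.0183, with array weights. The eBayes options, the filter and the looser threshold leave the difference unchanged, and a looser threshold cannot lose a call. The groups did not overlap, so leaving out 1 tumour could not reverse the direction. The shared direction is thus little added support. Leaving out 1 tumour gave 0.78 to 1.10, with 0 to 1 Siglec genes called (adjusted p from 0.0225 to 0.515); the call was kept without RG7112 replicate 1. Without probes below the 40th percentile the Siglece probe was not tested, and 0 of the 2 Siglec genes left were called in limma (0 at an unadjusted p under 0.05). With 1 vehicle tumour left, it is assumed to vary like the RG7112 tumours. Without 1 tumour, Siglec1 ran from -0.12 to 0.15, Cd33 from -0.15 to 0.28 and Siglech from -0.22 to 0.058, so their signs are not settled, and none was called. Siglecf, Siglecg, Cd22 and Mag kept their direction in every alternative that tested them. In these genes the groups did not overlap, so leaving out 1 tumour could not reverse them. Their signs are therefore not settled by this either. Over all probes, leaving out 1 tumour gave 65 to 268 higher (315 with all; 151 without vehicle replicate 3, 65 without vehicle replicate 4) and 0 to 5 lower calls (7 with all; the 0, without vehicle replicate 4, had 674 at an unadjusted p under 0.05). Lower calls were 16 with array weights, 4 with cyclic loess, 2 without probes below the 40th percentile, 3 without those below the olfactory receptor percentile and 29 at adjusted p under 0.10. Set against macrophage markers, Siglec1 ran from -1.68 to -1.13 and Siglece from -0.72 to -0.21 without 1 tumour. Each gene had 1 probe, so the mean of several probes was not run. No paired analysis was run, because the labels give no pairing of tumours between the groups.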
